A study of Drosophila melanogaster with 21 samples.

Results

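Poly(A) RNA from 12 of the 21 libraries of a series on S2R+ cells was used to ask whether depleting both core subunits of the m6A writer changed each transcript by as much as the single depletions add up to. The 4 groups, taken from the library titles, were cells depleted of both Ime4 and CG7818 (the double depletion), cells depleted of Ime4, cells depleted of CG7818, and Control cells, with 3 libraries each. Ime4 is an older name of Mettl3 and CG7818 of Mettl14, both in Drosophila melanogaster. S2R+ is an embryo-derived line with features of macrophages, and all groups were kept at room temperature. The genotype field of the double depletion names Ime4 alone, while its titles name both genes, and the titles were followed. The labels give neither the means nor the duration of the depletions, nor what Control cells received. Nor do they say that replicates were separate cultures, so p-values measure the spread between these libraries, which may be technical.

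N6-methyladenosine (m6A) is written into mRNA in the nucleus by a complex with a heterodimer at its core. Mettl3 holds the catalytic site, and Mettl14, which has none of its own, binds RNA and stabilises its partner. Fl(2)d, Virilizer, Nito, Flacc and Hakai are further proteins of the writer complex, and proteins with a YTH domain bind the mark. In flies the pathway is known for its role in the splicing of Sex-lethal and in the nervous system.

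For each gene the interaction was the log2 level in the double depletion, minus that in the Ime4 depletion, minus that in the CG7818 depletion, plus that in Control. At 0 the double effect equals the sum of the single effects on the log2 scale, where fold changes multiply. A gene is said to lie below the sum where its interaction opposes the direction of the summed single effects, and above the sum where it adds to it. Of 17558 counted gene IDs, 8360 passed a filter on low counts. Levels are counts-per-million (CPM) as mean ± SD over 3 libraries, and changes are log2 fold changes, each with a standard error (SE). The test was edgeR's quasi-likelihood one, its p-values were adjusted by Benjamini-Hochberg across the 8360 genes, and "rose", "fell" and "called" mark an adjusted p under 0.05. The sum reuses the Control and single-depletion libraries that also enter the interaction, and noise in those libraries alone moves the interaction against the sum. Of all 8360 genes tested, 6282 (75.1%) lay below their sum, and counts of genes below the sum have to be read against that share. How much of that share comes from noise was not tested.

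Gene counts per library ran from 20819785 to 28148357, so 1 CPM stood for 20.8 to 28.1 counts. The first principal component of the 12 libraries held 23.3% of the variance, with the double depletion at −10.8 to −8.58, the single depletions at −3.8 to 2.4 and Control at 11.9 to 13.9. The second held 12.4%, with the Ime4 depletion at 4.1 to 7.6 and the CG7818 depletion at −10.5 to −9.1. The plasmatocyte markers crq, Pxn, srp and ush had between 1719 and 6418 counts in every library, while NimC1 had at most 4, eater at most 15 and Hml at most 77. The fat body genes Lsp2, Fbp1, Yp1 and Lsp1beta had at most 4 counts and the muscle gene Mhc at most 6. Some markers of other cell types were present. The muscle factor gene Mef2 had 561 to 874 counts and the neuronal gene elav 332 to 589. The germline genes aub and bam had 2613 to 3834 and 1722 to 2589. Other members of these lists were lower, with at most 6 counts for brp, 9 for nSyb, 13 for Syt1 and 11 for piwi. futsch had 94 to 170, bgcn 41 to 118, and the muscle genes bt, Mlc2, sls and up at most 37. Among crystal cell and lamellocyte markers PPO3 had 1376 to 2379, Cpr 5453 to 7667 and PPO2 40 to 84. Of the same markers, lz had at most 4 counts and atilla 0. In these bulk libraries, fewer cells of a kind and less RNA per cell cannot be told apart.

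Both target transcripts were low in every library labelled as their depletion. Mettl3 was at 8.22, 4.40 and 3.37 CPM in the double depletion and at 6.58, 5.40 and 5.29 CPM in the Ime4 depletion, against 59.3, 61.2 and 56.9 CPM in the CG7818 depletion and 59.9, 62.0 and 62.8 CPM in Control. Mettl14 was at 7.01, 7.24 and 4.28 CPM in the double depletion and at 4.79, 6.87 and 5.73 CPM in the CG7818 depletion, against 69.3, 66.6 and 67.4 CPM in the Ime4 depletion and 66.2, 63.8 and 63.6 CPM in Control. Each target was therefore about as low in the double depletion as in its own single depletion, with an interaction of −0.04 (SE 0.221) for Mettl3 and 0.03 (SE 0.161) for Mettl14. Neither single depletion moved the partner's transcript past the test, with log2 fold changes of −0.06 (SE 0.115) for Mettl3 in the CG7818 depletion and 0.07 (SE 0.084) for Mettl14 in the Ime4 depletion.

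More transcripts were called in the double depletion than in either single depletion. Of the 8360 genes, 955 were called in the double depletion (11.4%), 311 in the Ime4 depletion (3.72%) and 194 in the CG7818 depletion (2.32%). Set directly against the Ime4 depletion, the double depletion was called for 13 genes (0.156%), with 3 higher (0.0359%) and 10 lower (0.12%). Against the CG7818 depletion it was called for 181 (2.17%), with 78 higher (0.933%) and 103 lower (1.23%). These counts depended on single libraries. The double depletion had 463 calls without Control replicate 2, 523 without its own replicate 1 and 587 without its replicate 2. Without any 1 of its own or the Control libraries, the Ime4 depletion had 135 to 193 calls and the CG7818 depletion 93 to 122, both lowest without Control replicate 2. The count against the Ime4 depletion was 6 to 8 without any of the 3 double depletion libraries, Ime4 replicate 1 or CG7818 replicate 1, and that against the CG7818 depletion was 23 to 61 without any of the 6 libraries compared.

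The interaction itself was called for 9 genes (0.108%), positive for 3 (0.0359%) and negative for 6 (0.0718%), and all 9 lay below the sum. At an unadjusted p under 0.05 the interaction held 681 genes (8.15%), of which 665 lay below the sum and 16 above. Choosing genes for a large interaction favours that side, since noise in the shared libraries moves the interaction against the sum. The side on which the called genes lay is therefore not evidence of its own. For 7287 genes (87.2%) the 95% interval of the interaction lay within 1 log2 unit of 0, and the median distance from the estimate to either bound was 0.23. Fitting the 12 libraries alone, without the other depletions, gave 47 genes of 8221 tested (0.572%), among them all 9, and a common biological coefficient of variation of 4.65%, against 6.37% in the fit of all 21 libraries. The root mean variance within groups was 0.242 on the log2 scale in the Fl2d depletion, which only the fit of all libraries holds, and 0.165 to 0.188 in the 6 other groups. The count also rested on single libraries, with 1 gene called without Ime4 replicate 2, 3 without Control replicate 3, and 5 when any 1 of double depletion replicates 1 and 3, CG7818 replicates 1 and 3 and Control replicate 1 was left out.

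**Figure D1:**
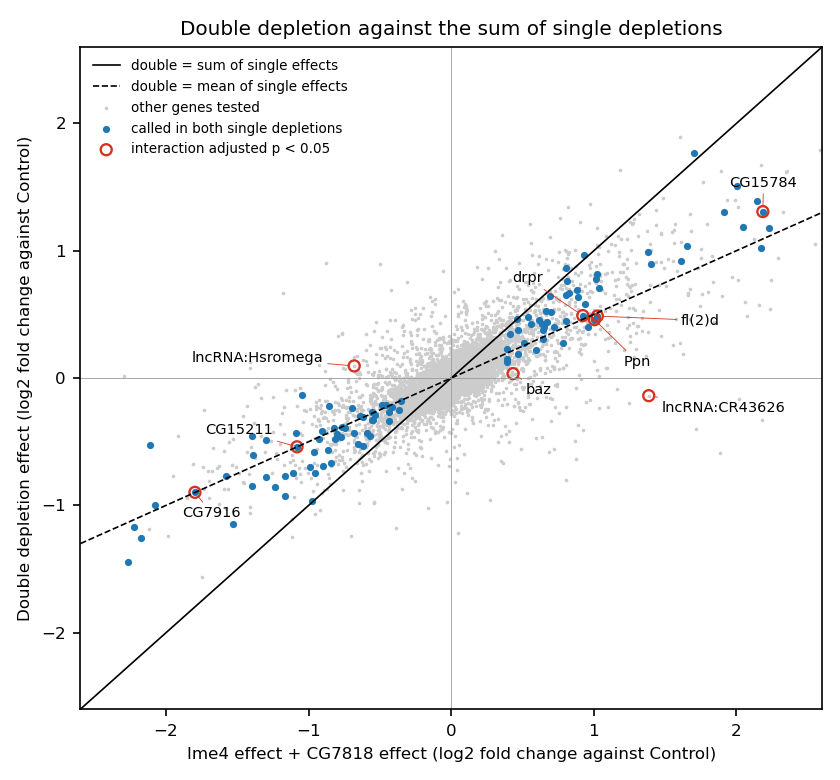
Double depletion effect (vertical axis) against the summed effects of the Ime4 and CG7818 depletions (horizontal axis), both as log2 fold changes against Control, one point per gene (Mettl3, Mettl14 and 8 genes beyond the axes are not drawn). Blue points are the 105 genes called in the same direction in both single depletions and red circles the 9 genes called in the interaction; most blue points lie nearer the dashed line, where the double effect equals the mean of the single effects, than the solid line of the sum.

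In 6 of the 9 genes the double depletion left the transcript near the level of each single depletion, with no further step that passed the test. These were drpr, CG15784, fl(2)d and Ppn, which rose in all 3 depleted groups, and CG15211 and CG7916, which fell in all 3. For none of the 6 was the double depletion called against either single depletion, and at an unadjusted p under 0.05 it differed only for CG15784, from the Ime4 depletion. The other 3, lncRNA:CR43626, baz and lncRNA:Hsromega, stood near Control in the double depletion and further from it in the single ones.

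Draper, the product of drpr, is the receptor by which phagocytes and glia take up dying cells and axon debris. The gene (FBgn0027594, chromosome 3L, 1715595 to 1731107, minus strand, build BDGP6.54) had 140.5, 144 and 141 CPM in the double depletion, 130.6, 131 and 142 CPM in the Ime4 depletion and 145, 140.5 and 147 CPM in the CG7818 depletion, against 101, 104 and 98.7 CPM in Control. Every depleted library lay above every Control library, and the 3 depleted groups overlapped in part. Over all genes, 34.8% had no overlap with Control in the double depletion, 27.5% in the Ime4 depletion and 22.8% in the CG7818 depletion. It rose by 0.49 (SE 0.042, adjusted p = 9.89e-08) in the double depletion, 0.41 (SE 0.042) in the Ime4 depletion and 0.51 (SE 0.042) in the CG7818 depletion. The interaction was −0.43 (95% interval −0.56 to −0.31, adjusted p = 0.00293), and additive effects would have put the double depletion at 192 CPM, against the 142 ± 2.1 CPM observed. The interaction of drpr was called in each of 18 other fits, 12 of which left out 1 library. The plasmatocyte markers, of which drpr is one, summed to 778 to 817 CPM in the double depletion, 790 to 818 CPM in the Ime4 depletion, 823 to 879 CPM in the CG7818 depletion and 788 to 853 CPM in Control, and drpr was the only one of the 10 tested whose interaction was called. drpr overlaps CG12035, CG18171 and Oseg4, and no source used here says whether counting went by strand, so its counts are uncertain to that extent.

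CG15784 (FBgn0029766, chromosome X, 5429571 to 5432526, plus strand) rose furthest among the 9. Its levels were 736, 833 and 741 CPM in the double depletion, 571, 662 and 634.5 CPM in the Ime4 depletion and 640, 731 and 752 CPM in the CG7818 depletion, against 293, 271 and 370.2 CPM in Control. Every depleted library stood above the highest Control library, and all lay far under the 1415 CPM that additive effects would give. It rose by 1.31 (SE 0.10, adjusted p = 2.06e-08) in the double depletion, 1.0 (SE 0.10) in the Ime4 depletion and 1.19 (SE 0.10) in the CG7818 depletion, with an interaction of −0.88 (SE 0.142, adjusted p = 0.0106). Without Ime4 replicate 2 the interaction was −0.83 and its adjusted p 0.0533. The double depletion exceeded the Ime4 depletion by 0.31 (95% interval 0.10 to 0.51), which did not pass the test over all genes (adjusted p = 0.301).

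The transcript of fl(2)d, which encodes the fly WTAP protein of the same writer complex, rose when either core subunit was depleted and stood no higher when both were. fl(2)d, with ID FBgn0000662, lies on the minus strand of chromosome 2R from 13819624 to 13824553. It had 171, 178 and 178 CPM in the double depletion, 167, 186 and 188 CPM in the Ime4 depletion and 172, 181 and 179.5 CPM in the CG7818 depletion, against 126, 126 and 124 CPM in Control. The depleted groups overlapped one another, and none of their libraries overlapped Control. Its changes were 0.49, 0.52 and 0.50 (SE 0.064 each) in the double, Ime4 and CG7818 depletions, and the interaction was −0.54 (SE 0.090, adjusted p = 0.0106). This call was lost without double depletion replicate 1 (adjusted p = 0.0671), Ime4 replicate 2 (0.0643) or Control replicate 3 (0.0512). Of the 9 writer and reader genes tested, fl(2)d was the only one called in the interaction in the fit of all libraries. Another, nito, picked out after its values were seen, was called only in the Ime4 depletion, at 114 ± 4.4 CPM. It stood at 102 ± 0.90 CPM in the double depletion, 105 ± 3.6 CPM in the CG7818 depletion and 98.6 ± 1.2 CPM in Control, with an interaction of −0.26 (adjusted p = 0.115). The interaction of nito was called in the fit of the 12 libraries (−0.25, adjusted p = 0.0475) and by the Wald test of DESeq2.

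Ppn encodes papilin, a secreted glycoprotein of the extracellular matrix. It (FBgn0003137, chromosome 3R, 28520665 to 28540324, minus strand) had 16.7, 17.97 and 16.3 CPM in the double depletion, 17.98, 17.1 and 15.5 CPM in the Ime4 depletion and 17.7, 18.2 and 18.6 CPM in the CG7818 depletion, against 11.9, 13.3 and 11.8 CPM in Control. The lowest depleted library, in the Ime4 group, was above the highest Control library. The interaction was −0.55 (SE 0.10, adjusted p = 0.0274), after rises of 0.46, 0.45 and 0.55 in the double, Ime4 and CG7818 depletions. That call was kept without double depletion replicate 2, Ime4 replicate 3 or Control replicate 2, and was lost without any other of the 12 libraries (adjusted p 0.0568 to 0.104). Among the 16 basement membrane and matrix genes tested it was the only one called in the interaction, and it rose while 7 others fell in the double depletion.

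The pair of genes that fell in every depleted group stood at much the same level in each. CG15211 (FBgn0030234, chromosome X, 10772541 to 10778981, plus strand) had 50.3, 51.7 and 50.9 CPM in the double depletion, 55.6, 52.8 and 57.3 CPM in the Ime4 depletion and 46.3, 46.1 and 48.7 CPM in the CG7818 depletion, against 74.5, 73.1 and 74.8 CPM in Control. Here the 3 depleted groups did not overlap, the double depletion lay between the single ones, and all were under Control. The interaction was 0.54 (SE 0.091, adjusted p = 0.0106), and the call was lost without Ime4 replicate 2 (adjusted p = 0.0643) or Control replicate 3 (0.0512). CG7916 (FBgn0028534, chromosome 2L, 13846752 to 13847799, plus strand) had 4.76, 4.80 and 5.04 CPM in the double depletion, 4.85, 3.94 and 4.86 CPM in the Ime4 depletion and 5.30, 5.601 and 4.64 CPM in the CG7818 depletion, against 9.43, 8.49 and 9.34 CPM in Control. Every depleted library was well under Control, and additive effects would have given 2.59 CPM in the double depletion. Its interaction was 0.90 (SE 0.171, adjusted p = 0.0321) and was kept without Ime4 replicate 3, CG7818 replicate 2 or Control replicate 2, but lost without any other library (adjusted p 0.0588 to 0.127). CG15211 overlaps Ant2 and CG7916 overlaps CenG1A, which leaves their counts uncertain.

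**Figure D2:**
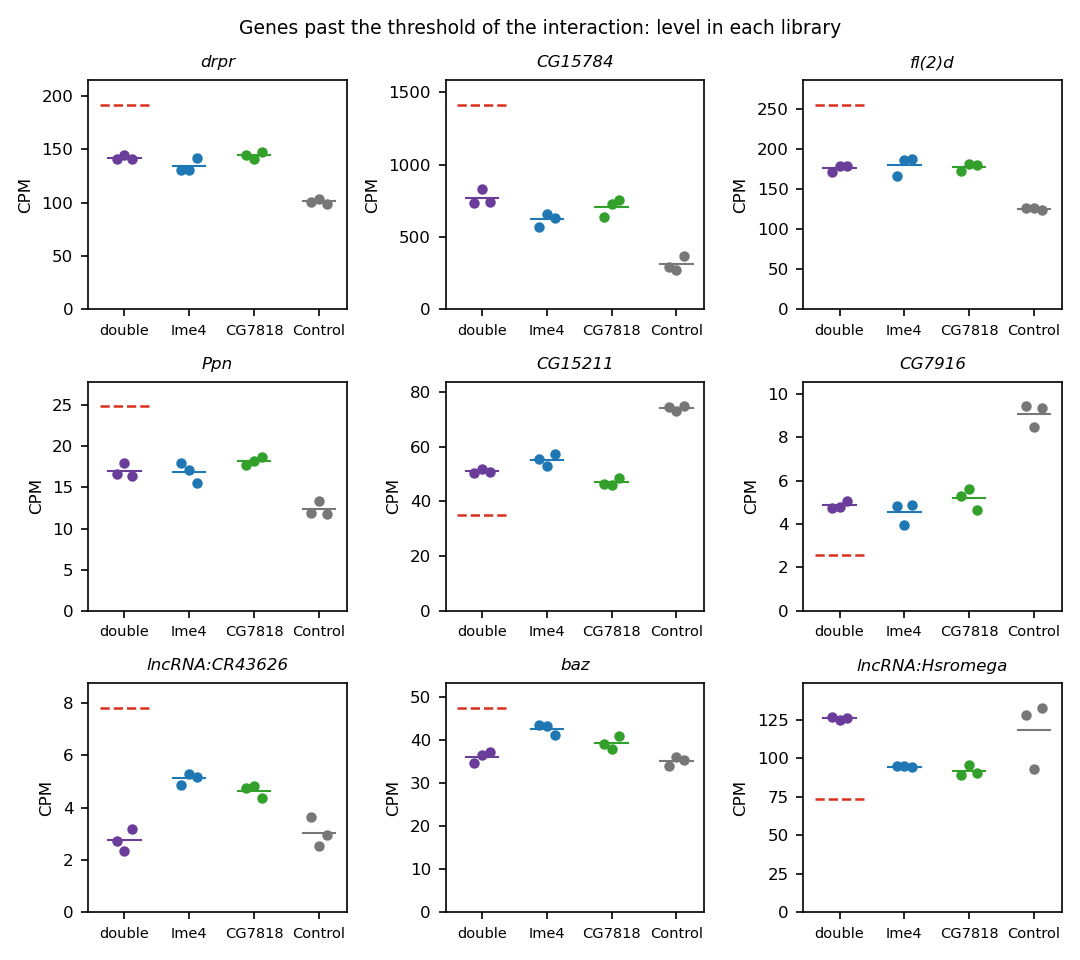
Level in CPM of the 9 genes called in the interaction, with 1 point per library, a solid line for the mean of 3 libraries in the double, Ime4 and CG7818 depletions and Control, and a red dashed line for the level that additive log2 effects would give in the double depletion. In the upper 2 rows the 3 depleted groups sit together and apart from Control; in the bottom row the double depletion sits at the level of Control.

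In the remaining 3 genes the double depletion stood closer to Control than either single depletion did. lncRNA:CR43626 (FBgn0263617, chromosome 3L, 3249340 to 3254504, plus strand), a long non-coding RNA whose locus contains mir-282, had 2.71, 2.35 and 3.18 CPM in the double depletion, 4.89, 5.31 and 5.19 CPM in the Ime4 depletion and 4.75, 4.83 and 4.37 CPM in the CG7818 depletion, against 3.63, 2.54 and 2.97 CPM in Control. The double depletion overlapped Control, and both single depletions lay above them. The RNA rose by 0.76 (SE 0.173, adjusted p = 0.0132) in the Ime4 depletion, while 0.62 (SE 0.175, adjusted p = 0.064) in the CG7818 depletion and −0.14 (SE 0.191) in the double depletion did not pass the test. It was lower in the double depletion than in either single one, by a log2 difference of −0.90 against Ime4 (adjusted p = 0.039) and −0.76 against CG7818 (adjusted p = 0.0299). These differences lost their calls without any 1 of 8 libraries (adjusted p 0.0537 to 0.265) and of 5 libraries (0.0857 to 0.146), among them double depletion replicates 1 and 2 and CG7818 replicates 1 and 2 for both. Its interaction was the largest called, at −1.52 (SE 0.250, adjusted p = 0.0106), with 54 to 127 counts behind each library's value, and its adjusted p was 0.0533 without Ime4 replicate 2. The rise in the Ime4 depletion was lost without Ime4 replicate 2 (adjusted p = 0.0585) or Control replicate 2 (0.115). The overlap of lncRNA:CR43626 with mir-282 leaves its counts uncertain.

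The polarity scaffold Bazooka, the fly Par-3, is encoded by baz (FBgn0000163, chromosome X, 17160006 to 17200728, plus strand). It had 34.5, 36.4 and 37.1 CPM in the double depletion, 43.3, 43.1 and 41.0 CPM in the Ime4 depletion and 39.1, 37.85 and 40.8 CPM in the CG7818 depletion, against 34.0, 36.0 and 35.4 CPM in Control. Only the Ime4 depletion was called against Control, with a rise of 0.27 (SE 0.053, adjusted p = 0.00449). The CG7818 depletion gave 0.16 (SE 0.053, adjusted p = 0.131), the double depletion 0.03 (SE 0.053), and the interaction −0.40 (SE 0.075, adjusted p = 0.0312). That call was kept without Ime4 replicate 3, CG7818 replicate 2 or Control replicate 2 and lost without any other library (adjusted p 0.0574 to 0.157). TTLL1A and lncRNA:CR44026 lie on the opposite strand within baz, so its counts are uncertain.

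lncRNA:Hsromega (FBgn0001234, chromosome 3R, 21296127 to 21317836, plus strand) is the stress-responsive nuclear RNA around which omega speckles form. It overlaps mir-4951, so its counts are uncertain. Its levels were 127, 125 and 126 CPM in the double depletion, 94.8, 94.9 and 94.1 CPM in the Ime4 depletion and 89.3, 95.7 and 90.3 CPM in the CG7818 depletion, against 128, 93.2 and 133 CPM in Control. The single depletions were tight and low, the double depletion tight and high, and Control replicate 2 sat with the single depletions, apart from the other Control libraries. No comparison with Control passed the test, with −0.32 (SE 0.106) in the Ime4 depletion, −0.36 (SE 0.106) in the CG7818 depletion and 0.10 (SE 0.105) in the double depletion. The double depletion was higher than the CG7818 depletion by 0.46 (adjusted p = 0.029), a call lost without any 1 of the 6 libraries compared (adjusted p 0.0687 to 0.134), and the interaction was 0.78 (SE 0.15, adjusted p = 0.0364). Among the 9 calls this one was kept in the fewest of the 18 other fits, 5: it was kept without Control replicate 2, where the interaction was 0.93, and lost without any other library (interaction 0.68 to 0.81, adjusted p 0.0626 to 0.154).

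The same series holds depletions of Fl2d, the writer subunit, of YT521, the nuclear YTH reader, and of CG6422, the cytoplasmic one, each with 3 libraries and set against the same Control libraries. Here drpr had 192 ± 3.7 CPM in the Fl2d depletion and 203 ± 6.0 CPM in the YT521 depletion, rises of 0.93 and 1.0, beside 0.49 in the double depletion, and CG15784 had 3617 ± 228 CPM in the Fl2d depletion, a rise of 3.54, and 498 ± 44 CPM in the YT521 depletion, a rise of 0.68 (adjusted p = 0.000252). Ppn rose by 0.98 in the Fl2d depletion, to 24.4 ± 0.91 CPM, and CG15211 fell by 1.13, to 34.0 ± 3.4 CPM. These 4 transcripts therefore took levels in the Fl2d depletion close to or beyond those that additive effects would have given in the double depletion. CG7916 did not, with 7.02 ± 1.1 CPM in the Fl2d depletion (log2 fold change −0.37, adjusted p = 0.0114), closer to Control than in the double depletion. Of the 3 genes near Control in the double depletion, lncRNA:CR43626 rose by 0.85 and baz by 0.36 in the Fl2d depletion, and lncRNA:Hsromega fell by 0.47. fl(2)d itself was the target there, at 21.7 ± 3.1 CPM. In the YT521 depletion fl(2)d rose by 0.27 (adjusted p = 0.0139), CG15211 fell by 0.34 (adjusted p = 0.0019) and CG7916 fell by 0.60 (adjusted p = 0.00158), while Ppn, baz, lncRNA:CR43626 and lncRNA:Hsromega were not called. In the CG6422 depletion drpr fell by 0.15 and CG7916 by 0.42, baz rose by 0.16, and the other 6 were not called.

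Other stress-linked genes had positive interactions that did not pass the test. Thor, which encodes the translation repressor 4E-BP, had 70.1, 71.9 and 66.6 CPM in the double depletion, 40.2, 49.97 and 51.9 CPM in the Ime4 depletion and 49.2, 55.1 and 48.0 CPM in the CG7818 depletion, against 57.9, 54.4 and 72.7 CPM in Control. Its interaction was 0.83 (SE 0.167, adjusted p = 0.0507), and the double depletion exceeded the CG7818 depletion by 0.45 (adjusted p = 0.0466), a call lost without any 1 of 9 libraries, the 6 compared among them (adjusted p 0.054 to 0.207). Hsp70Bbb, an inducible chaperone gene with near-identical copies that may share its reads, averaged 1.73 ± 0.56 CPM in the double depletion, 1.29 ± 0.15 CPM in the Ime4 depletion and 1.096 ± 0.14 CPM in the CG7818 depletion, against 2.45 ± 0.25 CPM in Control. It fell by 0.94 in the Ime4 depletion and by 1.17 in the CG7818 depletion, but not past the test in the double depletion (−0.52, SE 0.206), with an interaction of 1.59 (SE 0.328, adjusted p = 0.0544). The fall in the Ime4 depletion was lost without Ime4 replicate 1 (−0.84, adjusted p = 0.0939) or Control replicate 2 (−0.85, adjusted p = 0.0929). Double depletion replicate 3 was the high one, at 2.38 CPM against 1.42 and 1.395 CPM in the others, which were near the single depletions, and without it the interaction was 1.3 (adjusted p = 0.207). Of the 27 heat shock and chaperone genes tested, none was called in the interaction, 9 had a positive interaction at an unadjusted p under 0.05 and 1 a negative one, where 3.54% and 4.61% of all genes did. Their median interaction was 0.09, and the near-identical Hsp70 genes among them are not separate measurements. Hsp68, picked out after its values were seen, had 72.3, 69.1 and 114 CPM in the double depletion, replicate 3 again the highest and the others near the single depletions, 65.9 ± 9.9 CPM in the Ime4 depletion, 64.0 ± 3.6 CPM in the CG7818 depletion and 93.2 ± 5.8 CPM in Control, with an interaction of 0.91 (adjusted p = 0.0584). Hsp68, Hsp70Bbb and Thor were among the 47 genes called when only the 12 libraries were fitted.

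Those 47 genes comprised 24 with a positive and 23 with a negative interaction. Again all lay below the sum, the side that choosing genes by the interaction favours. In 37 the double effect kept the direction of the summed single effects and in 10 it lay on the other side of Control. Their median absolute double effect was 0.24, beside a median absolute sum of 0.65. By the calls of the fit of all libraries, 26 were called in both single depletions, 8 in the Ime4 depletion alone, 4 in the CG7818 depletion alone and 9 in neither single depletion nor the double. Their smallest interaction was 0.23 in size, against 0.40 among the 9 genes.

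Both single depletions were called in the same direction for 105 genes (1.26%), 50 higher and 55 lower. The 50 that rose had median log2 fold changes of 0.52 in the double, 0.43 in the Ime4 and 0.40 in the CG7818 depletion, where the sum was 0.81. The 55 that fell had medians of −0.48, −0.42 and −0.45, where the sum was −0.86. The double effect was at or under the larger single effect in 41 genes, between it and the sum in 60 and above the sum in 4, and 101 of the 105 (96.2%) lay below the sum. Being called in both single depletions selects genes whose single effects came out large in these libraries, so this share cannot be read as a property of the genes. Of the 105, 99 were called in the double depletion, 6 in the interaction, 4 in the double against the Ime4 depletion and 12 in the double against the CG7818 depletion. Over all genes these shares were 11.4%, 0.108%, 0.156% and 2.17%. The double and single depletions were set against the same Control libraries, so the overlap of their calls is partly built in. For 33 of the 105 the 95% interval of the interaction held 0.

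Among the genes with the largest summed effects, levels in the double depletion ranged from no step beyond the single depletions to the full sum. Choosing genes by a large sum favours single effects that came out large in these libraries, and so double effects below the sum. CG33127 averaged 2.19 ± 0.23 CPM in the double depletion, 1.84 ± 0.27 CPM in the Ime4 depletion and 2.36 ± 0.35 CPM in the CG7818 depletion, against 0.96 ± 0.04 CPM in Control, with an interaction of −1.05 (SE 0.243, adjusted p = 0.0995). SkpB, which encodes a Skp-type adaptor of ubiquitin ligases, averaged 1.77 ± 0.05 CPM in the double depletion, 1.502 ± 0.17 CPM in the Ime4 depletion and 1.32 ± 0.21 CPM in the CG7818 depletion, and 0.67 ± 0.06 CPM in Control. Its interval of the interaction, −1.33 to −0.17, lay below 0, though the adjusted p was 0.453. Alp4, an alkaline phosphatase gene, reached 5.10 ± 0.23 CPM in the double depletion, against 3.66 ± 0.77 CPM in the Ime4 depletion, 3.56 ± 0.23 CPM in the CG7818 depletion and 1.85 ± 0.63 CPM in Control, and its interval, −1.12 to 0.12, held 0. Of the genes that fell, lncRNA:CR45517 averaged 2.401 ± 0.16 CPM in the double depletion, 2.56 ± 0.44 CPM in the Ime4 depletion, 2.45 ± 0.11 CPM in the CG7818 depletion and 5.46 ± 0.90 CPM in Control, with an interaction of 1.05 (adjusted p = 0.296) that was called in the fit of the 12 libraries (1.06, adjusted p = 0.0475). CG1544 was nearer the sum, at 1.32 CPM in the double depletion, 1.63 CPM in the Ime4 depletion, 1.82 CPM in the CG7818 depletion and 2.97 CPM in Control, with an interaction of 0.39 (95% interval −0.14 to 0.91). The call in the CG7818 depletion was lost for SkpB, Alp4 and CG1544, and that in the Ime4 depletion for Alp4, without 1 of several libraries (adjusted p 0.0546 to 0.146), among them CG7818 replicate 1 and Control replicates 2 and 3 for SkpB. CG33127, SkpB and Alp4 overlap other genes and their counts are uncertain.

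**Figure D3:**
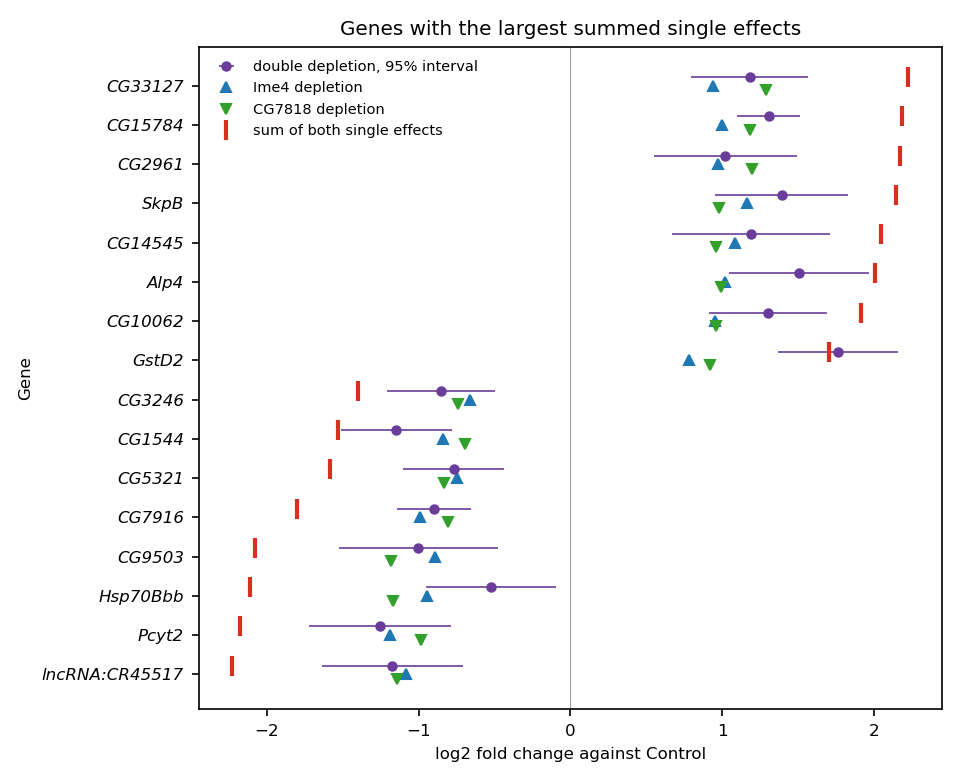
Log2 fold changes against Control of the 8 genes with the highest and the 8 with the lowest summed single effects among those called in both single depletions. Purple points with 95% intervals are the double depletion, blue and green triangles the Ime4 and CG7818 depletions and red bars the sum of the single effects. The GstD2 point sits at its red bar, while the intervals of most other genes end short of theirs. Choosing genes by a large sum favours that outcome, and the bars are drawn without the error of the sum. Among the genes drawn, only CG15784 and CG7916 were called in the interaction.

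Among the genes with the largest sums, GstD2, a glutathione S-transferase gene, had an interaction near 0 with a wide interval. It had 4.01, 4.27 and 3.99 CPM in the double depletion, 1.85, 2.39 and 2.00 CPM in the Ime4 depletion and 2.54, 2.17 and 2.09 CPM in the CG7818 depletion, against 1.42, 1.18 and 0.99 CPM in Control. All double depletion libraries were above all single depletion libraries, and these were above all Control libraries. It rose by 1.76 (SE 0.190, adjusted p = 1.17e-06) in the double depletion, 0.78 (SE 0.205, adjusted p = 0.0324) in the Ime4 depletion and 0.92 (SE 0.203, adjusted p = 0.0136) in the CG7818 depletion. The double depletion was higher than the Ime4 depletion by 0.98 (adjusted p = 0.00665) and than the CG7818 depletion by 0.85 (adjusted p = 0.0102), and the interaction was 0.06 with a 95% interval of −0.48 to 0.61. The call against the Ime4 depletion was lost without double depletion replicate 2 or Ime4 replicate 1 (adjusted p 0.0643 to 0.0859), and that against the CG7818 depletion without double depletion replicate 2 or CG7818 replicates 2 or 3 (0.0514 to 0.0703). Of the single rises, that in the Ime4 depletion was lost without any Ime4 replicate or Control replicates 2 or 3 (0.67 to 0.87, adjusted p 0.0515 to 0.156), and that in the CG7818 depletion without CG7818 replicate 1 or Control replicates 2 or 3 (0.82 to 0.91, adjusted p 0.0678 to 0.0817). Related GstD genes lie close by and may share reads with it.

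Several stress regulators were intermediate in the single depletions and highest in the double. The integrated stress response factor ATF4 is encoded in flies by crc, which had 1077, 1014 and 1045 CPM in the double depletion, 957, 883 and 881 CPM in the Ime4 depletion and 830, 748 and 806 CPM in the CG7818 depletion, against 696, 656 and 652 CPM in Control. The groups did not overlap, and the double depletion stood above the CG7818 depletion by 0.40 (adjusted p = 0.00158), though not past the test above the Ime4 depletion (0.20, adjusted p = 0.252). Its rises of 0.65, 0.44 and 0.25 in the double, Ime4 and CG7818 depletions left an interaction of −0.05 (95% interval −0.22 to 0.13). The rise of crc in the CG7818 depletion was lost without CG7818 replicates 1 or 3 or Control replicates 2 or 3 (0.21 to 0.24, adjusted p 0.106 to 0.16). The Hsp70-Hsp90 co-chaperone gene Stip1 had 439 ± 9.99 CPM in the double depletion, 388 ± 7.9 CPM in the Ime4 depletion, 372 ± 15 CPM in the CG7818 depletion and 315 ± 7.7 CPM in Control, with an interaction of −0.06 (95% interval −0.18 to 0.06). Ire1, the sensor of unfolded proteins in the endoplasmic reticulum, had 165 ± 2.6 CPM in the double depletion, 151 ± 0.32 CPM in the Ime4 depletion, 148 ± 2.6 CPM in the CG7818 depletion and 127 ± 8.4 CPM in Control, with an interaction of −0.09 (95% interval −0.24 to 0.06). These intervals hold 0 and exclude a departure from the sum beyond about 0.24 on the log2 scale. Among 24 tested members of the unfolded protein response and the integrated stress response, 8 rose in the double depletion and none fell, where 6.29% of all genes rose and 5.13% fell. In the Ime4 depletion 5 rose (1.77% of all genes rose) and in the CG7818 depletion 3 (1.1%), and the median interaction was 0.00, with 2 members positive and none negative at an unadjusted p under 0.05.

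Among falling genes with effects near the sum were robo2 and axo, from the list of axon guidance and neuronal adhesion. robo2, a receptor for the guidance cue Slit, had 46.0 ± 1.7 CPM in the double depletion, 53.1 ± 3.8 CPM in the Ime4 depletion, 54.2 ± 4.3 CPM in the CG7818 depletion and 66.3 ± 5.7 CPM in Control, with an interaction of 0.09 (95% interval −0.15 to 0.32). axo had 10.9 ± 0.56 CPM in the double depletion, 13.6 ± 1.7 CPM in the Ime4 depletion, 13.99 ± 1.7 CPM in the CG7818 depletion and 20.7 ± 1.1 CPM in Control, with an interaction of 0.24 (95% interval −0.04 to 0.53). Of the 24 genes of that list tested, 4 fell in the double depletion and none rose, 1 rose and 2 fell in the Ime4 depletion, and 1 rose and 4 fell in the CG7818 depletion, where 5.13%, 1.95% and 1.22% of all genes fell. The fall of robo2 in the CG7818 depletion (−0.29, adjusted p = 0.0491) was lost without any library of the 12 but CG7818 replicate 3 and Control replicate 3 (adjusted p 0.0504 to 0.262), and that in the Ime4 depletion without Ime4 replicate 2 or Control replicates 1 or 2 (adjusted p 0.0507 to 0.154). Both robo2 and axo overlap other genes, as does Ire1, and their counts are uncertain.

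Some genes called in 1 single depletion were called in the double depletion too. Hrb98DE, which encodes an hnRNP A/B type splicing factor, had 199, 187 and 195 CPM in the double depletion and 175, 170 and 178 CPM in the CG7818 depletion, against 305, 273 and 271 CPM in the Ime4 depletion and 298, 287 and 274 CPM in Control. Both groups depleted of CG7818 were low and the other groups high, with no overlap between them. It fell by 0.56 (SE 0.054) in the double and by 0.71 (SE 0.054) in the CG7818 depletion, and its interaction of 0.17 (95% interval 0.01 to 0.32) did not pass the test (adjusted p = 0.577). The double depletion minus the CG7818 depletion was 0.15 (95% interval 0.04 to 0.26, adjusted p = 0.15). The ribosomal protein gene RpL7A had 2176 ± 36 CPM in the double depletion, 2927 ± 134 CPM in the Ime4 depletion, 1915 ± 126 CPM in the CG7818 depletion and 2994 ± 172 CPM in Control, with an interaction of 0.22 (95% interval −0.03 to 0.46). Its double depletion minus its CG7818 depletion was 0.18 (95% interval 0.01 to 0.36, adjusted p = 0.262). Hrb98DE and RpL7A overlap snoRNA genes, and their counts are uncertain to that extent. LanB1, a laminin chain gene picked out after its values were seen, had 97.7 CPM in the double depletion and 101 CPM in the Ime4 depletion, against 150 CPM in the CG7818 depletion and 147 CPM in Control, with an interaction of −0.08. It fell by 0.59 in the double depletion (adjusted p = 2.88e-07) and by 0.54 in the Ime4 depletion (adjusted p = 3.56e-06), and its change of 0.03 in the CG7818 depletion was not called. LanB2, another laminin chain gene chosen in the same way, had 169 CPM in the double depletion, 174 CPM in the Ime4 depletion, 214 CPM in the CG7818 depletion and 209 CPM in Control, with an interaction of −0.07. It fell by 0.31 in the double depletion (adjusted p = 0.00121) and by 0.27 in the Ime4 depletion (adjusted p = 0.00894), and its change of 0.04 in the CG7818 depletion was not called.

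By class, 206 genes were called in the Ime4 depletion but not in the CG7818 depletion, and 89 the other way round. Of the 206, 155 were also called in the double depletion (75.2%), as were 52 of the 89 (58.4%), against 11.4% of all genes. The same Control libraries enter the single and the double comparisons, so this overlap is partly built in. In the interaction 2 of the 206 were called and 0 of the 89, where 57 and 51 had a 95% interval wholly below the sum. Over all genes 0.108% were called in the interaction and 7.95% had an interval wholly below the sum. Not reaching the threshold in a single depletion does not show the absence of an effect there. The median absolute effect of the uncalled subunit was 0.14 in the Ime4 class and 0.17 in the CG7818 class. Over all genes it was 0.079 in the CG7818 depletion and 0.087 in the Ime4 depletion, and noise alone keeps such medians above 0. Both single depletions also share the Control libraries that enter the choice of class. Below the sum lay 178 of the 206 (86.4%) and 86 of the 89 (96.6%), a share pulled upward by the same choice on single effects.

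**Figure D4:**
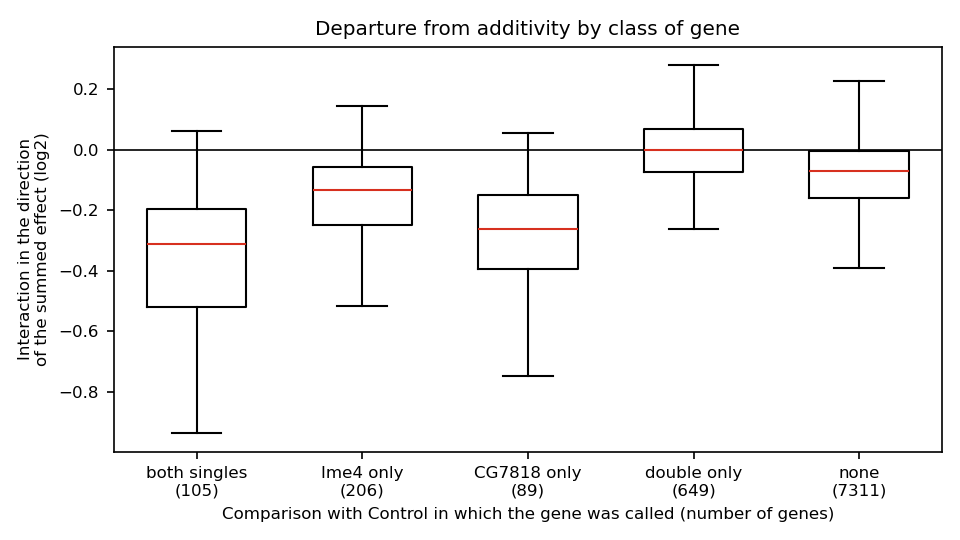
Interaction in the direction of the summed single effects (log2, vertical axis; negative values lie below the sum) for the 105 genes called in both single depletions, the 206 called in Ime4 alone, the 89 in CG7818 alone, the 649 called only in the double depletion and the 7311 called in none. Boxes run from the lower to the upper quartile with the median in red and whiskers to the last gene within 1.5 box lengths; the medians are −0.31, −0.13, −0.26, −0.00 and −0.07 in that order.

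Most genes called in the double depletion had passed no single test, and over these the departures from the sum centred on 0. There were 649 such genes, 384 of them higher, against 306 called in the double and in at least 1 single depletion. Their median absolute effect was 0.27 in the double depletion, 0.16 in the Ime4 depletion and 0.13 in the CG7818 depletion, with a median absolute sum of 0.28. They divided almost evenly, with 329 below the sum and 320 above, and none was called in the interaction, while the 95% interval of 10 lay wholly below the sum and of 16 wholly above. Choosing genes by the double depletion favours large double effects, the opposite pull to the choice on single effects, so neither class gives an unselected view. Over all 955 genes called in the double depletion, the median double effect was 0.30 and the median sum in its direction 0.34, with an interaction of −0.04.

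In the genes of this class given here, the single depletions held smaller mean shifts that did not pass the test. These genes were chosen for large double effects, and the same Control libraries enter the single and double comparisons. Shifts of the single depletions in the same direction are therefore partly built in. CG10814 had 12.2, 12.7 and 11.7 CPM in the double depletion, 5.70, 8.004 and 8.67 CPM in the Ime4 depletion and 5.77, 6.23 and 4.64 CPM in the CG7818 depletion, against 5.22, 3.58 and 5.93 CPM in Control. Only the double depletion was called against Control, with a rise of 1.34 (SE 0.179, adjusted p = 3.49e-05) and an interaction of 0.52 (95% interval −0.01 to 1.06). Or46a, an odorant receptor gene, had 2.34 ± 0.10 CPM in the double depletion, 1.61 ± 0.25 CPM in the Ime4 depletion, 1.44 ± 0.27 CPM in the CG7818 depletion and 0.99 ± 0.27 CPM in Control, with an interaction of −0.03 (SE 0.283). Ance, which encodes a peptidase related to angiotensin-converting enzyme, fell to 0.80 ± 0.15 CPM in the double depletion, where the Ime4 depletion had 1.16 ± 0.14 CPM, the CG7818 depletion 1.24 ± 0.17 CPM and Control 1.67 ± 0.09 CPM, with an interaction of −0.11 (SE 0.294). The adenylyl cyclase gene Ac78C stood at 2.998 CPM in the double depletion, 3.78 CPM in the Ime4 depletion, 4.02 CPM in the CG7818 depletion and 5.62 CPM in Control, with an interaction of 0.17 (95% interval −0.41 to 0.75). The intervals of these low transcripts were wide, reaching 1.06 for CG10814 and −0.72 for Ance, so departures from the sum of that size were not detectable. Or46a overlaps other genes.

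Of 45 genes of DNA replication and the cell cycle tested, 15 fell and 1 rose in the double depletion, where 5.13% of all genes fell and 6.29% rose. None of the 45 was called in the interaction or in the Ime4 or CG7818 depletion, where 1.95% and 1.22% of all genes fell. At an unadjusted p under 0.05, 4 were higher and 3 lower in the Ime4 depletion and 3 higher and 0 lower in the CG7818 depletion. That the share called differed between the double and single depletions was not itself tested, and every interaction missed the threshold. The median log2 fold change was −0.13 in the double, −0.04 in the Ime4 and 0.00 in the CG7818 depletion. Their median interaction was −0.10, beside −0.00 over all genes, and 4 members had a negative interaction at an unadjusted p under 0.05, as did 4.61% of all genes. Mcm7, a subunit of the replicative helicase, had 74.5, 78.5 and 72.9 CPM in the double depletion, 88.0, 84.7 and 82.1 CPM in the Ime4 depletion and 88.9, 91.3 and 87.0 CPM in the CG7818 depletion, against 88.5, 96.2 and 88.7 CPM in Control. The double depletion lay below all other libraries. It fell by 0.28 (SE 0.052, adjusted p = 0.00137) and was lower than the CG7818 depletion by a log2 difference of −0.24 (adjusted p = 0.0211, lost without any of 5 of the 6 libraries compared, at 0.0652 to 0.126), with an interaction of −0.14 (95% interval −0.29 to 0.01). Mcm5, another helicase subunit, had 79.6 ± 0.66 CPM in the double depletion, 87.7 ± 3.2 CPM in the Ime4 depletion, 90.3 ± 2.4 CPM in the CG7818 depletion and 92.8 ± 2.6 CPM in Control, with an interaction of −0.10 (95% interval −0.24 to 0.04). Mcm7 overlaps an antisense RNA gene and its counts are uncertain.

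Some matrix, adhesion and cytoskeleton genes fell in the double depletion, where 5.13% of all genes fell and 6.29% rose. Of 16 basement membrane and matrix genes 7 fell and 1, Ppn, rose in the double depletion, 3 fell and 1 rose in the Ime4 depletion, and 1 rose in the CG7818 depletion. Among the 27 genes of integrins, adhesion and the actin cytoskeleton 7 fell in the double depletion, 1 in the Ime4 depletion and 1 in the CG7818 depletion (1.95% and 1.22% of all genes fell in these). The median interaction was −0.00 in the matrix list and 0.01 in the adhesion list. cher, which encodes the actin crosslinker filamin, had 473 ± 22 CPM in the double depletion, 532 ± 24 CPM in the Ime4 depletion, 565 ± 30 CPM in the CG7818 depletion and 601 ± 36 CPM in Control. It fell by 0.34 (SE 0.067, adjusted p = 0.00168) in the double depletion and was called in neither single one, with an interaction of −0.08 (95% interval −0.28 to 0.12), and it overlaps genes on the other strand.

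Some detoxification genes and genes of the enzymes that charge tRNAs rose in the double depletion, where 6.29% of all genes rose, as did 1.77% in the Ime4 and 1.1% in the CG7818 depletion. Of 31 detoxification and redox genes 8 rose and 1 fell in the double depletion, 2 rose in the Ime4 depletion and 1 rose in the CG7818 depletion, with a median interaction of −0.02. GstD9 had 21.9 ± 0.04 CPM in the double depletion, 18.8 ± 1.2 CPM in the Ime4 depletion, 17.7 ± 1.9 CPM in the CG7818 depletion and 15.7 ± 0.71 CPM in Control, with an interaction of 0.05 (SE 0.113). Of 17 aminoacyl-tRNA synthetase genes 6 rose in the double depletion, 1 in the Ime4 depletion and 0 in the CG7818 depletion, with a median interaction of −0.03. TrpRS, the tryptophanyl-tRNA synthetase gene, had 235 ± 0.41 CPM in the double depletion, 215 ± 4.1 CPM in the Ime4 depletion, 208 ± 4.3 CPM in the CG7818 depletion and 202 ± 5.2 CPM in Control, with an interaction of 0.09 (95% interval −0.04 to 0.22).

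None of 17 genes of RNA interference and none of 24 of insulin and TOR signalling was called in any of the 3 depletions or the interaction. Over all genes, 11.4% were called in the double, 3.72% in the Ime4 and 2.32% in the CG7818 depletion and 0.108% in the interaction. In lists this small few calls would come from those shares, so the lack of calls does not show the lists to be unaffected. At an unadjusted p under 0.05 the first list held 2 higher and 1 lower in the double depletion and none in the interaction, and the second 0 higher and 1 lower in the double depletion and 2 positive in the interaction. Of 24 innate immunity genes 1 rose and 4 fell in the double depletion and 5 fell in the Ime4 depletion, where 5.13% and 1.95% of all genes fell. Among them was spz, the Toll ligand gene, at 27.6 ± 1.0 CPM in the double depletion, 29.7 ± 2.5 CPM in the Ime4 depletion, 32.0 ± 2.4 CPM in the CG7818 depletion and 39.0 ± 3.0 CPM in Control. The fall of spz in the Ime4 depletion was lost without Ime4 replicates 2 or 3 or Control replicate 2 (adjusted p 0.0619 to 0.105). Of 80 cytosolic ribosomal protein genes 1 rose and 2 fell in the double depletion, and of 70 mitochondrial ones 2 rose. Of all genes, 6.29% rose and 5.13% fell there. In the 32 lists examined, the members called in the interaction were fl(2)d, Ppn and drpr.

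**Figure D5:**
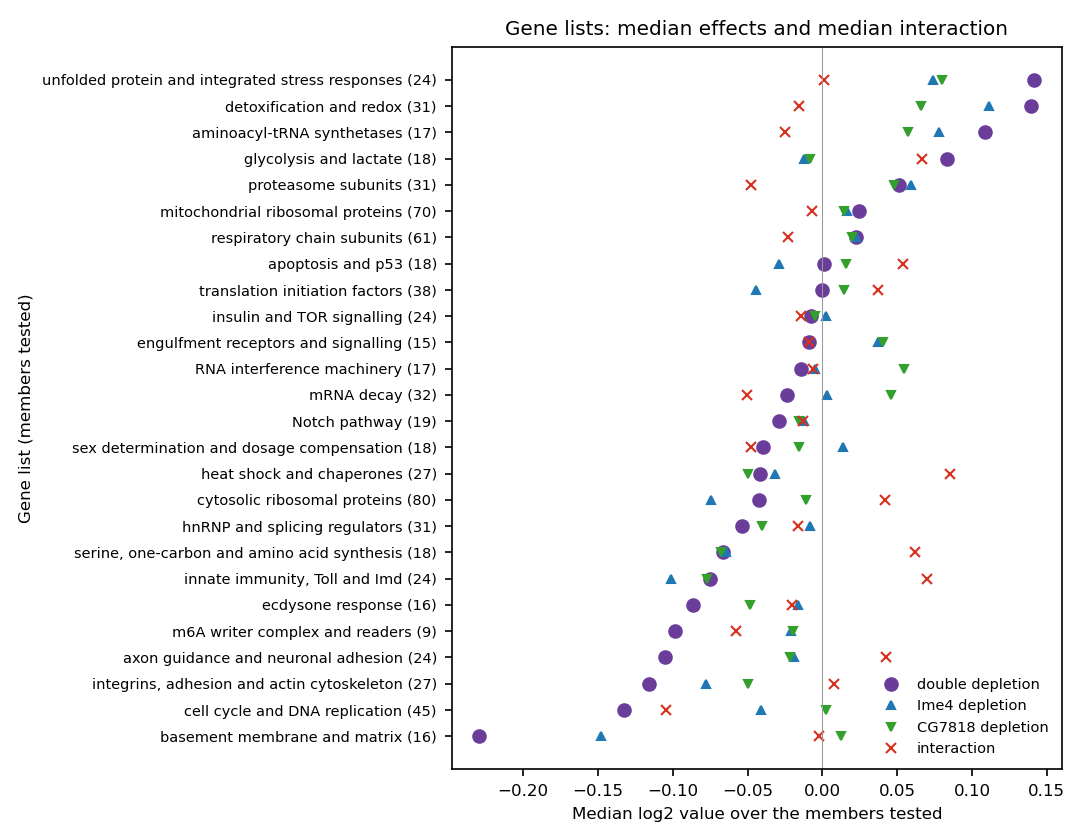
Median log2 fold change against Control in the double (purple circles), Ime4 (blue triangles) and CG7818 (green triangles) depletions and median interaction (red crosses) over the members tested of each gene list of at least 9 tested members, cell type markers left out, with the number of members in brackets. Among the lists drawn, the double depletion medians run from −0.23 for basement membrane genes to 0.14 for the unfolded protein and integrated stress responses, and the medians of the interaction lie between −0.10 for cell cycle genes and 0.09 for heat shock and chaperone genes.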

How the data were processed

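The deposited files hold raw read counts per gene, made by the authors for each of the 21 libraries. The submitters' processing notes name STAR 2.4.0h, HTSeq 0.6.1, CASAVA 1.8.4, DESeq2 1.6.3 and the build BDGP6. For the annotation release and the strand setting, nothing is stated in the labels or files used. The 5 summary lines that name no gene were left out; of each library's lines together, multi-mapped reads were 12.1 to 17.6%, reads in no feature 1.77 to 1.91% and ambiguous reads 0.772 to 0.855%. Reads carried no molecular identifiers, so read counts are not counts of molecules.

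Counts were fitted with edgeR 4.0.16 in R 4.3.3 (quasi-likelihood, TMM scaling), in 1 model of 7 groups over 21 libraries with 14 residual degrees of freedom. Genes passed edgeR's expression filter at a minimum count of 10, fold changes used a prior count of 0.125, and p-values were adjusted by Benjamini-Hochberg over 8360 genes. CPM values are counts over the TMM-scaled library total. Standard errors and 95% intervals are the model's. The scripts were tested on simulated data. Same-numbered deviations from the group means correlated at 0.192, 0.109 and 0.156 between the double and CG7818 depletions. Over the 4 groups together the median of such correlations was 0.061, and the main fit did not pair libraries. Alternatives were a fit of the 12 libraries, the size factors and the Wald test of DESeq2 1.42.0, limma-trend (limma 3.58.1), no filter, a replicate block, effects added on linear CPM, and leaving out each library.

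Genes named, with a mean of at least 1 CPM, were the targets and fl(2)d, all genes called in the interaction, with those of lowest p filling each direction to 5 as values, the 8 highest and 8 lowest sums among genes called in both single depletions, the 6 highest and 6 lowest called in the double depletion alone without overlap with Control, and up to 3 members of each list. Of 888 members of 32 lists, 862 matched a counted ID. The members, lists and tests were chosen with earlier results of these data known. Symbols and coordinates come from the BDGP6.54 annotation, which held 17252 of the 17558 IDs.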

Additional observations from a re-analysis of the deposited data

Results flagged for a closer look

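For 9 genes the effect of depleting 1 core subunit differed with whether the other was depleted too, by edgeR's quasi-likelihood test of that difference itself over all genes. The differences, as log2 interactions, were −0.432 for drpr, −0.878 for CG15784, −1.52 for lncRNA:CR43626, −0.538 for fl(2)d and −0.546 for Ppn. They were −0.399 for baz, 0.541 for CG15211, 0.9 for CG7916 and 0.776 for lncRNA:Hsromega. In all 9 the double depletion lay below the sum of the single effects, the side that choosing genes by the interaction favours. Added on the linear CPM scale, the effects gave an interaction of the same sign for each of the 9 genes. For CG15211, CG7916 and lncRNA:Hsromega this outcome was fixed beforehand. With both single depletions under Control, linear addition always predicts a lower level than log2 addition, so a positive interaction stays positive. The calls of Ppn, baz, CG7916 and lncRNA:Hsromega were each lost when any of 9 of the 12 libraries was left out (11 for lncRNA:Hsromega), and those of the other 5 were kept without at least 9 of the 12.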

How the results depend on the processing

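The count of genes called in the interaction was 9, and became 47 with the 12 libraries alone, 46 with no filter on low counts and 36 with the Wald test of DESeq2. All 9 genes were called under each of these. DESeq2 size factors gave 10 and limma-trend 8, where lncRNA:Hsromega was not called. Leaving out 1 library gave between 1 (without Ime4 replicate 2) and 12 (without Ime4 replicate 3). In the fit of the 12 libraries, the double, Ime4 and CG7818 depletions against Control had 1524, 784 and 489 calls, where the fit of all libraries had 955, 311 and 194. Leaving out 1 library gave 463 to 922 for the double depletion, 135 to 293 for Ime4 and 93 to 177 for CG7818, each lowest without Control replicate 2. Calls of the double against the Ime4 depletion, 13 in the fit of all libraries, numbered 68 with the 12 libraries, 76 with no filter and 45 with DESeq2, and 6 (without double depletion replicate 2) to 16 without 1 library. Against the CG7818 depletion the 181 calls became 646, 320 and 300 under the same settings, and 23 (without double depletion replicate 1) to 165 without 1 library. The median interaction of the 105 genes called in both single depletions, in the direction of the sum, was −0.312, and was −0.243 with the 12 libraries and −0.396 to −0.307 without 1 library.

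Over the 4 groups of the interaction, replicate numbers were not taken as pairing the libraries in the main fit. The 18 correlations of same-numbered deviations ran from −0.088 to 0.192, with a median of 0.061 and 5 above 0.1. The 36 between other numbers ran from −0.156 to 0.158, with a median of −0.032 and 1 above 0.1. Of the 12 libraries, 10 correlated best with their own number. These values do not settle whether the numbers pair the libraries, so a block was fitted as an alternative. With a replicate block the interaction had 11 calls, the double against the Ime4 depletion 22, the double depletion 1096, the Ime4 depletion 414, the CG7818 depletion 233 and the double against the CG7818 depletion 258, and the median interaction stayed at −0.312. The block kept 8 of the 9 interaction calls, with lncRNA:Hsromega at 0.774 (adjusted p = 0.0541), and added Thor at 0.842 (adjusted p = 0.0152), Hsp68 and CG6891. The change of Eip74EF in the double depletion was −0.215 there (adjusted p = 0.0512) and no longer called. Every call of a named gene between the double and a single depletion was kept with the block.

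For single named genes and contrasts, 3948 values under the alternatives counted as unchanged, 274 lost the call, 12 gained one and 13 uncalled values moved. Called values counted as unchanged if they kept their direction and either their call or had no adjusted p, and 0 of them reversed. Uncalled values counted as unchanged if they stayed uncalled and within 1 SE, whatever their direction. For effects added on linear CPM, only the sign was compared. The median interaction over all genes stayed within 0.0119 of 0 under the alternatives. Scaling of the libraries centres fold changes over all genes near 0, so this median says nothing about additivity. In the fit of all libraries no interaction under 0.399 in size was called, and in that of the 12 none under 0.228, and low transcripts had wide intervals.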
